A study of Mus musculus with 8 samples.

Results

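This account follows 6 genes that are widely used to identify the stroma of the developing kidney, measured in nephron progenitors: the transcription factor genes Foxd1, Meis1, Meis2 and Tcf21 and the receptor genes Pdgfra and Pdgfrb. They are 6 of the 24539 gene symbols in the series' count table and were taken by symbol. The set was put together because Foxd1 was known to rise, and Meis1 to fall, from libraries with little Smo RNA to libraries with much of it. Those differences are therefore described here without a test, for all 6 genes. All 6 passed the filter on low counts that left 13459 genes to be tested.

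The data are RNA sequencing counts from 8 libraries of mouse kidney cells at E18.5, sorted by the fluorescence of Six2GFPcre. This transgene, which every group carries, expresses Cre recombinase fused to GFP in cells where Six2 is active. There are 4 groups with 2 libraries each, which differ in Smo, the gene of the transducer Smoothened in the Hedgehog pathway. Smo KO is Smo c/c with Six2GFPcre (2 conditional alleles), Smo Het is Smo c/+ with Six2GFPcre (1 conditional and 1 wild-type allele), Smo WT is Smo +/+ with Six2GFPcre, and the SmoM2 transgenic group is Rosa26 SmoM2/+ with Smo +/+ and Six2GFPcre. The Rosa26 allele makes SmoM2, an active form of Smo, where Cre has acted, and the series concerns the part of Hedgehog signalling in maintaining these progenitors, with the dose of Smo as its variable. Nothing in the labels says how many embryos went into a library, so p-values measure the spread between these libraries, which may be partly technical.

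Total counts ran from 4422305 to 10305398 and were lowest in the KO group. Smo itself lay between 11.1 and 24.0 CPM (a gene's count scaled to the size of its library) in the KO and Het libraries, from 363 to 375 CPM for WT and from 605 to 629 CPM for SmoM2. The Het libraries thus went against their label, and each group is therefore named with the word labelled. KO-labelled and Het-labelled libraries form the low-Smo side, and those labelled WT or SmoM2 the high-Smo side. By Xist and Y-linked counts both KO-labelled libraries were male and both Het-labelled libraries female, while the WT-labelled and SmoM2-labelled groups had 1 library of each sex. Sex and label cannot be told apart between the KO-labelled and Het-labelled libraries.

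In the embryonic kidney, nephron progenitors that express Six2 give rise to the epithelium of the nephron, and the stroma that surrounds them gives rise to interstitial fibroblasts, pericytes and mesangial cells. Foxd1, a forkhead transcription factor, marks the stromal progenitors of the outer cortex. Meis1 and Meis2 are TALE homeobox factors that bind DNA together with Pbx proteins, and Meis1 is a common marker of the whole interstitium. Tcf21 is a basic helix-loop-helix factor of stroma and podocytes. Pdgfra and Pdgfrb encode receptor tyrosine kinases for platelet-derived growth factors, found on interstitial fibroblasts and on pericytes and mesangial cells.

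On mm10, the build in the submitters' processing notes, and in the GENCODE M21 annotation, Foxd1 is a gene with 1 exon on the plus strand of chromosome 13 (98354242 to 98359305). Meis1 spans 18879817 to 19018985 on the minus strand of chromosome 11 and Meis2 spans 115863064 to 116065839 on the minus strand of chromosome 2. Tcf21 lies at 22817281 to 22820174 on the minus strand of chromosome 10 and Pdgfra at 75152292 to 75198215 on the plus strand of chromosome 5. Exons of Meis1 overlap those of 2 other annotated genes and exons of Pdgfra those of 3. The labelled library protocol names no step that marks strand, and reads from antisense neighbours of Meis1 and Pdgfra cannot be told apart from their own.

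The promoters of the 3 genes whose levels parted the sides are shown because 1 of them rose and the other 2 fell. The windows run from 250 to 51 bases before the RefSeq gene start on GRCm38.p6, in the direction of transcription, and capitals mark CpG pairs. Windows were taken from the RefSeq promoter table for 5 of the 6 genes, and Pdgfrb was left out.
Foxd1: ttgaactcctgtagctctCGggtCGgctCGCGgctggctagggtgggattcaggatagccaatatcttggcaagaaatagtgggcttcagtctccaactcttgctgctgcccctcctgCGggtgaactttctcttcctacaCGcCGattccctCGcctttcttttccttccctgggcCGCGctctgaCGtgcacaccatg
Meis1: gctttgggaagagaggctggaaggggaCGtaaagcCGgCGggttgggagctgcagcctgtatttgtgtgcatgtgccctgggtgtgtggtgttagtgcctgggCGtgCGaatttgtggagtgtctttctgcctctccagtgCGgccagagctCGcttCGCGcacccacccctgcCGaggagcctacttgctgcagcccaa
Tcf21: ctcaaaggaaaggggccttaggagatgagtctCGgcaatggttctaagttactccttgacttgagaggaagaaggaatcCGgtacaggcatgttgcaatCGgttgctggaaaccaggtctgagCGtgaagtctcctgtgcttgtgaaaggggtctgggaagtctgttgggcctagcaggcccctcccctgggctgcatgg
The Foxd1 window is chr13:98353995-98354194 (plus strand), the Meis1 window chr11:19019020-19019219 (minus strand) and the Tcf21 window chr10:22820194-22820393 (minus strand). They held 11, 10 and 4 CpG pairs, beside a median of 4 over the 32851 windows of the table. None of the 5 member windows held the letters TGGGTGGTC of a GLI site on either strand, which 0.192% of all windows held. The same was found for the MEIS letters TGACAG (13.1% of all windows), the FOX letters TGTTTAC (2.58%) and the E-box CAGCTG (10.3%), and these counts say only that the letters are not in these windows.

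Foxd1 had the widest range of the 6 genes. KO-labelled replicates 1 and 2 had 12.8 and 3.70 CPM, Het-labelled ones 22.5 and 14.6, WT-labelled ones 197 and 171, and SmoM2-labelled ones 385 and 301 CPM. The 4 groups lay in the order KO, Het, WT and SmoM2, and no neighbouring groups overlapped, an arrangement that 1.78% of the tested genes showed. Foxd1 was chosen with its rise between the sides known, which is part of this arrangement, so nothing is read from that share. The means were 8.27 ± 6.46, 18.53 ± 5.55, 184 ± 17.8 and 343 ± 59.4 CPM (SD, n = 2 each). Averaged over 4 libraries a side, Foxd1 was 19.6-fold higher on the high-Smo side. In edgeR's model, whose log2 changes carry their standard error (SE), the KO-labelled minus WT-labelled change was -4.48 (SE 0.36) and the Het-labelled minus WT-labelled change -3.30 (SE 0.31). Against the SmoM2-labelled libraries the changes were -5.37 (SE 0.36) and -4.19 (SE 0.32).

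The step in Foxd1 was also a change of rank. On the deposited RPKM values, which divide by gene length, the share of tested genes that lay below Foxd1 was 26.5% and 42.9% in the KO-labelled and Het-labelled groups, and it was 93.4% for WT-labelled and 97.0% for SmoM2-labelled libraries. Its raw counts on the low-Smo side were 58 and 17 in the KO-labelled and 168 and 86 in the Het-labelled libraries. The 95% Poisson intervals of the KO-labelled counts, 44.0 to 75.0 and 9.90 to 27.2, did not overlap at nearly equal library totals, so these replicates differed by more than counting error.

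**Figure D1:**
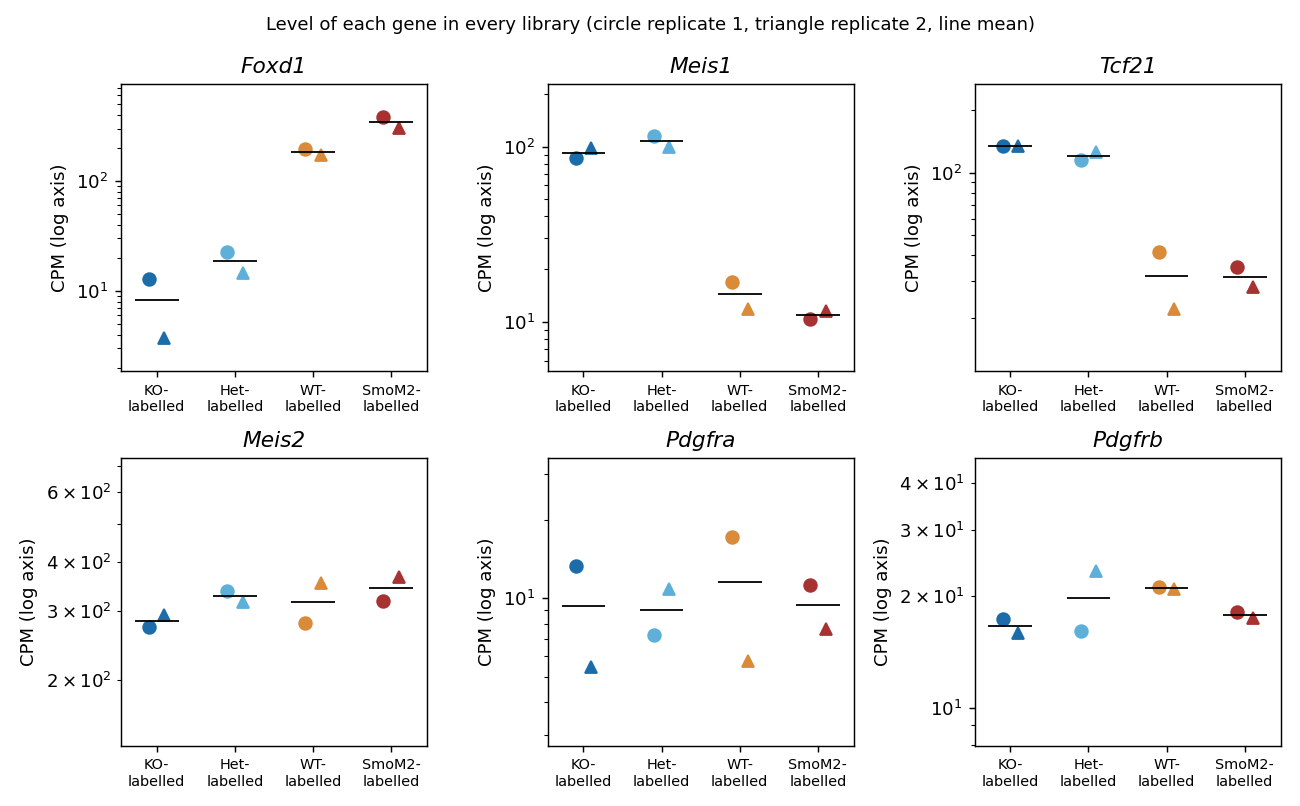
CPM of the 6 genes (log axes) in each library, with circles for replicate 1, triangles for replicate 2 and a line at the mean of each labelled group. Foxd1 climbs from 3.70 to 385 CPM over the groups, Meis1 and Tcf21 lie higher in the KO-labelled and Het-labelled libraries, and Meis2, Pdgfra and Pdgfrb show no split between the sides.

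Meis1 ran the other way. KO-labelled replicates had 86.4 and 98.4 CPM and Het-labelled ones 114 and 99.9, against 16.97 and 11.8 CPM for WT-labelled and 10.4 and 11.6 CPM for SmoM2-labelled replicates. Every low-Smo library lay above every high-Smo library. Group means were 92.4 ± 8.52, 107 ± 10.2, 14.4 ± 3.68 and 11.0 ± 0.797 CPM (SD, n = 2 each), in the order Het, KO, WT and SmoM2 from high to low. Over the sides Meis1 was 7.87-fold higher where Smo was low. The log2 change was 2.68 (SE 0.18) for KO-labelled and 2.89 (SE 0.18) for Het-labelled minus WT-labelled libraries, and 3.07 (SE 0.19) and 3.29 (SE 0.18) against the SmoM2-labelled libraries.

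Tcf21 lay on the side of Meis1. It was at 134 CPM in both KO-labelled libraries and at 114 and 125 CPM in the Het-labelled libraries. WT-labelled replicates had 41.6 and 22.0 CPM, and SmoM2-labelled ones 35.1 and 27.97 CPM. Here, too, the sides did not overlap, and the WT-labelled replicates spanned the SmoM2-labelled ones. Tcf21 was 4.01-fold higher on the low-Smo side, with log2 changes of 2.07 (SE 0.23) for KO-labelled and 1.91 (SE 0.23) for Het-labelled minus WT-labelled libraries. Against the SmoM2-labelled libraries they were 2.08 (SE 0.24) and 1.92 (SE 0.23).

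Meis2, the paralog of Meis1, did not follow it. Its replicate levels were 273 and 293 CPM (KO-labelled), 338 and 316 CPM (Het-labelled), 279 and 352 CPM (WT-labelled) and 318 and 366 CPM (SmoM2-labelled). The sides overlapped, and the highest library was 1.34-fold above the lowest. The log2 change between the sides was -0.11 (SE 0.10), and it was 0.10 once the trend of each library over gene length was removed, so its sign depended on the scaling. On the per-length scale Meis2 had 42.1 RPKM over the 8 libraries and Meis1 13.5, and in the KO-labelled and Het-labelled libraries the RPKM of Meis1 (21.2 to 27.0) stayed under that of Meis2 (37.5 to 44.6).

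The receptor genes were low in every library. For Pdgfra, KO-labelled replicates gave 13.3 and 5.44 CPM, Het-labelled ones 7.22 and 10.9, WT-labelled ones 17.2 and 5.77, and SmoM2-labelled ones 11.2 and 7.63 CPM. The groups overlapped throughout, and the WT-labelled replicates, 2.99-fold apart, held both a highest and a near-lowest value. Pdgfrb ran from 15.9 to 23.3 CPM, also with overlapping sides. Their ranges were 0.531 to 1.70 RPKM for Pdgfra and 2.41 to 3.46 RPKM for Pdgfrb, beside 14.2 to 93.8 RPKM for Tcf21. The log2 changes between the sides were -0.19 (SE 0.35) for Pdgfra and -0.10 (SE 0.15) for Pdgfrb, and both were positive (0.14 and 0.06) once length trends were removed.

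In all, 3 of the 6 genes (Foxd1, Meis1 and Tcf21) parted the 4 low-Smo from the 4 high-Smo libraries. That arrangement held in 33.1% of all tested genes, and since the set was chosen on this contrast nothing is read from the count.

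**Figure D2:**
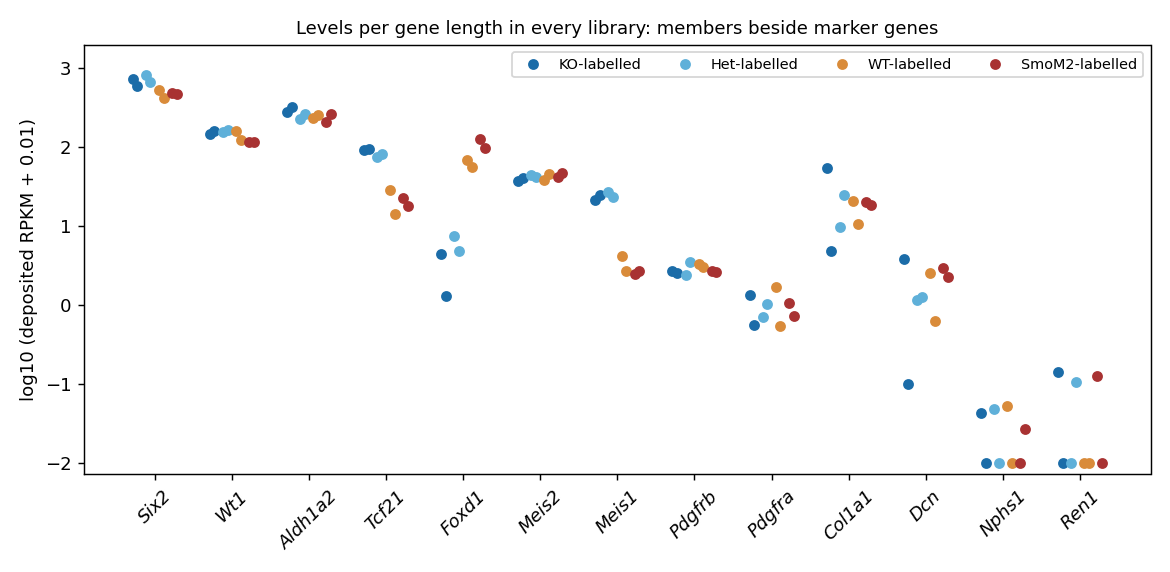
Deposited RPKM (log10 scale after adding 0.01) of the 6 genes and of marker genes, 1 point per library, coloured by labelled group. Six2 lies highest, Tcf21 and Foxd1 trade places between the sides, Pdgfra and Pdgfrb stay low, and Nphs1 and Ren1 are at or near 0.

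The comparisons within each side were not used to choose the genes, and they ask whether the 6 genes also differ between the KO-labelled and Het-labelled and between the SmoM2-labelled and WT-labelled libraries. None of the 6 passed edgeR's quasi-likelihood test at a Benjamini-Hochberg adjusted p under 0.05 over all genes in either comparison, while 9.43% of all tested genes passed it in the first and 0.223% in the second. DESeq2 also called none. At an unadjusted p under 0.05 Foxd1 was the only one, in both comparisons.

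Foxd1 was lower in the KO-labelled than in the Het-labelled libraries by a log2 change of -1.18 (SE 0.39, 95% interval -2.03 to -0.33, edgeR unadjusted p 0.0106, adjusted p 0.0762). The size rested on single libraries: it was -2.34 without KO-labelled replicate 1 (edgeR adjusted p 0.0295) and -0.55 without KO-labelled replicate 2 (edgeR adjusted p 0.311). Over all alternatives the edgeR or DESeq2 adjusted p ran from 1.06e-06 (no filter on low counts) to 0.365, and 3 of 17 passed the threshold. In SmoM2-labelled minus WT-labelled libraries the change was 0.90 (SE 0.27, interval 0.31 to 1.48, edgeR unadjusted p 0.00589, adjusted p 0.322), and it lay between 0.72 and 1.07 in all alternatives. It passed the threshold in 1 of these 17, the fit with no filter on low counts. Libraries did not overlap for Foxd1 in either comparison, with Foxd1 higher in the Het-labelled and in the SmoM2-labelled group. Such non-overlap held in 56.9% and 35.8% of the tested genes, so nothing is read from it. Smo itself was not called in either comparison (edgeR adjusted p 0.0907 and 0.132).

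Meis1 changed little within the sides. The KO-labelled minus Het-labelled difference was -0.21 (SE 0.16, interval -0.57 to 0.14, edgeR adjusted p 0.424), and the SmoM2-labelled minus WT-labelled difference was -0.39 (SE 0.19, interval -0.82 to 0.03, edgeR adjusted p 0.704). Libraries did not overlap in either comparison, with Meis1 lower in the KO-labelled and in the SmoM2-labelled group. Non-overlap of 2 libraries against 2 was common, in 56.9% and 35.8% of the tested genes. Neither interval reached the size of the change between the sides.

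For Tcf21 the differences were 0.16 (SE 0.22, interval -0.33 to 0.65, edgeR adjusted p 0.687) and -0.02 (SE 0.24, interval -0.53 to 0.50, edgeR adjusted p 0.996). Meis2 gave -0.21 (interval -0.52 to 0.10) and 0.12 (interval -0.19 to 0.42), and Pdgfrb -0.24 (interval -0.71 to 0.24) and -0.24 (interval -0.68 to 0.20). Pdgfra had the widest intervals, from -1.09 to 1.21 around 0.06 and from -1.32 to 0.74 around -0.29. At its counts of 25 to 185, the first of these intervals holds a 2-fold change in either direction and the second a 2-fold decrease. The adjusted p of Meis2, Pdgfrb and Pdgfra lay between 0.367 and 0.960 in these edgeR tests.

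**Figure D3:**
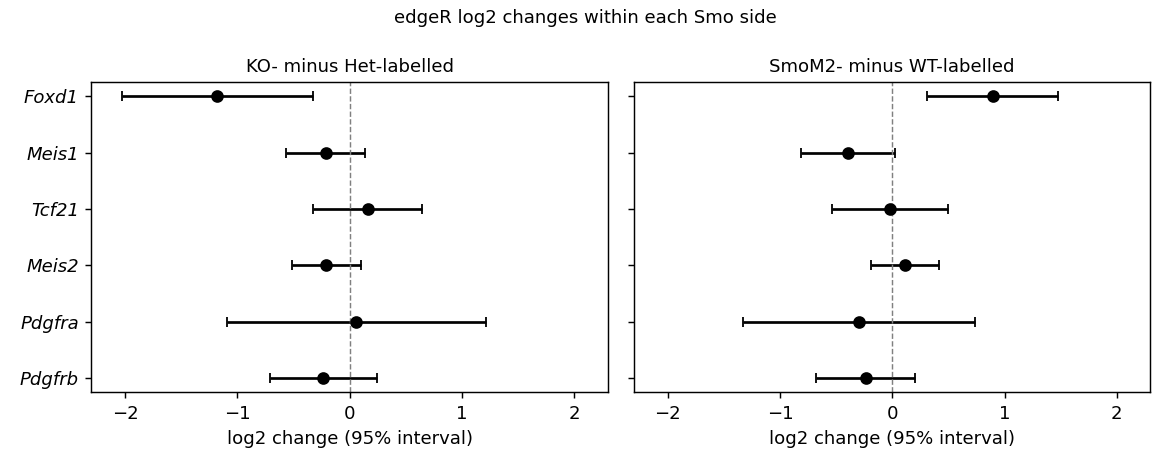
edgeR log2 changes with 95% intervals for the 6 genes, KO-labelled minus Het-labelled on the left and SmoM2-labelled minus WT-labelled on the right. The intervals of Foxd1, -2.03 to -0.33 and 0.31 to 1.48, leave out 0 before adjustment over all genes, and those of the other 5 genes include it.

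The remaining genes of each family were examined from lists, where calls are from edgeR at an adjusted p under 0.05 and changes are given as the mean of the low-Smo groups minus the mean of the high-Smo groups. In that contrast 43.5% of all tested genes were called, 22% higher and 21.5% lower on the low-Smo side, and the median log2 change of all tested genes was 0.01.

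Of the Foxd paralogs, Foxd2, a forkhead factor also expressed in kidney mesenchyme, was the only 1 of 3 that could be tested, with Foxd3 and Foxd4 at 5 counts or fewer in every library. Foxd2 was at 128 and 98.6 CPM in KO-labelled replicates, 249 and 209 CPM in Het-labelled, 262 and 276 CPM in WT-labelled and 304 and 353 CPM in SmoM2-labelled ones. The KO-labelled libraries stood below the rest, and the other groups lay in the same order as for Foxd1 with smaller steps. Foxd2 fell in KO-labelled against Het-labelled libraries (log2 -1.02, SE 0.15, edgeR adjusted p 0.00714), a call lost without Het-labelled replicate 1 (edgeR adjusted p 0.0805). Between the sides it was lower where Smo was low (log2 -0.88, SE 0.11, edgeR adjusted p 9.32e-05). SmoM2-labelled minus WT-labelled libraries gave 0.29, which did not pass.

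Among the 9 TALE partners of Meis proteins, all tested, 2 were called higher on the low-Smo side, with a list median of -0.22. Meis3, the least expressed Meis gene in CPM on the low-Smo side, rose there, with 51.0 CPM against 29.5 CPM on the other side and a log2 change of 0.79 (SE 0.13, edgeR adjusted p 0.0008), and Pbx3 by 0.59 (SE 0.12, edgeR adjusted p 0.00221). None of the 9 was called within a side by edgeR.

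The E proteins pair with Tcf21 on DNA. Tcf12 and Tcf4 were lower on the low-Smo side (log2 -0.58, SE 0.10, edgeR adjusted p 0.000909, and -0.49, SE 0.08, edgeR adjusted p 0.000943), opposite in sign to Tcf21, and the Tcf4 call was lost when length trends, with or without GC trends, were removed. Tcf3 and Msc, the paralog of Tcf21, were not called, with changes of 0.06 and 0.34. The list median of these 4 genes was -0.21.

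Of the 4 PDGF ligands 3 were tested, and none was called between the sides, with a median of 0.21. Pdgfa, a ligand of Pdgfra, and Pdgfc were well above their receptors at 38.7 and 36.9 RPKM over the 8 libraries. Pdgfa rose in KO-labelled against Het-labelled libraries (log2 0.56, SE 0.15, edgeR adjusted p 0.0391), a call that 7 of 17 alternatives did not give.

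Of 16 other regulators of kidney stroma 13 were tested, and 8 were lower, as Foxd1 was, and 1 higher on the low-Smo side, with a median of -0.71. Fat4, an atypical cadherin of stroma, had 82.4 and 102 CPM in KO-labelled, 135 and 139 in Het-labelled, 141 and 272 in WT-labelled and 394 and 321 CPM in SmoM2-labelled replicates (log2 -1.27, SE 0.17, edgeR adjusted p 0.000219). Zeb2, a zinc-finger factor, fell by 1.44 on the log2 scale (SE 0.17, edgeR adjusted p 9.32e-05), and Rarb, a retinoic acid receptor, by 0.71 (SE 0.11, edgeR adjusted p 0.000472). The call of Twist1 was lost in 7 alternatives. Snai2 rose (log2 0.93, SE 0.24, edgeR adjusted p 0.00889). Aldh1a2, an enzyme of retinoic acid synthesis known from cortical stroma, had the highest level of the list at 258 RPKM and was not called (log2 0.15). Within the sides, Smoc2 was called higher and Foxd2 lower in KO-labelled against Het-labelled libraries, where 4.33% of all tested genes were called higher and 5.1% lower. The Smoc2 call was lost without KO-labelled or Het-labelled replicate 1, and no gene of this list was called in SmoM2-labelled against WT-labelled libraries.

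Matrix and mural genes of stroma showed no common direction. Of 16 genes 15 were tested, with 3 higher, 4 lower and 8 not called on the low-Smo side and a median of -0.06. Lox, a collagen cross-linking enzyme, fell by 1.93 on the log2 scale (SE 0.26, edgeR adjusted p 0.0002), and Acta2, smooth muscle actin, rose by 1.13 (SE 0.28, edgeR adjusted p 0.00710). Acta2 was also higher in KO-labelled than in Het-labelled libraries (log2 1.63, SE 0.39, edgeR adjusted p 0.0267), a call lost in 3 of 17 alternatives, among them those without KO-labelled or Het-labelled replicate 1. The calls of Col1a2, Lum and Rgs5 were lost in 5 to 9 alternatives each. Col1a1 and Col3a1, the main interstitial collagens, were not called (log2 0.34 and -0.20).

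These matrix genes varied between replicates, and the replicate order of the 6 genes is set beside theirs. Col1a1 was at 380 and 32.9 CPM in KO-labelled replicates 1 and 2, while Het-labelled ones had 70.5 and 181, WT-labelled ones 145 and 80.4, and SmoM2-labelled ones 148 and 138 CPM. The summed level of the 16 genes ranged from 563 to 1267 CPM (KO-labelled), 745 to 970 CPM (Het-labelled), 846 to 1084 CPM (WT-labelled) and 943 to 970 CPM (SmoM2-labelled), with Ren1 at 0 counts in 5 libraries. For Pdgfra and for Pdgfrb, the replicate with the higher CPM was also the higher one in all 4 groups for 8 of the 16 matrix and mural genes, among them Col1a1, Col3a1, Postn and Dcn, and in 3 groups for 6 more. The other 2 were Cspg4, which agreed in 2 groups, and Des, which agreed in 1. Tcf21 had the same tally in CPM, but its KO-labelled order turned with the scale, with 134.2 and 133.7 CPM against 92.5 and 93.8 RPKM. In CPM these 3 genes shared 1 replicate order over the 4 groups, so their equal tallies are 1 observation. The Pdgfrb replicates were also close in the WT-labelled (21.1 and 20.8 CPM) and SmoM2-labelled (18.1 and 17.5 CPM) groups. The share of all tested genes with such a tally was not computed, and nothing is read from it. Foxd1 was ordered with Col1a1, Col3a1, Postn and Dcn in 3 of the 4 groups, among them the KO-labelled group. Its KO-labelled replicate 1, with 58 counts against 17, was the library with the highest Col1a1. Meis1 was lower in that library than in its replicate, and Meis2 was lower in the replicate with more Col1a1 in every group. The part of stromal cells in these differences was not tested, and in bulk libraries fewer cells of a type and less RNA per cell cannot be told apart.

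**Figure D4:**
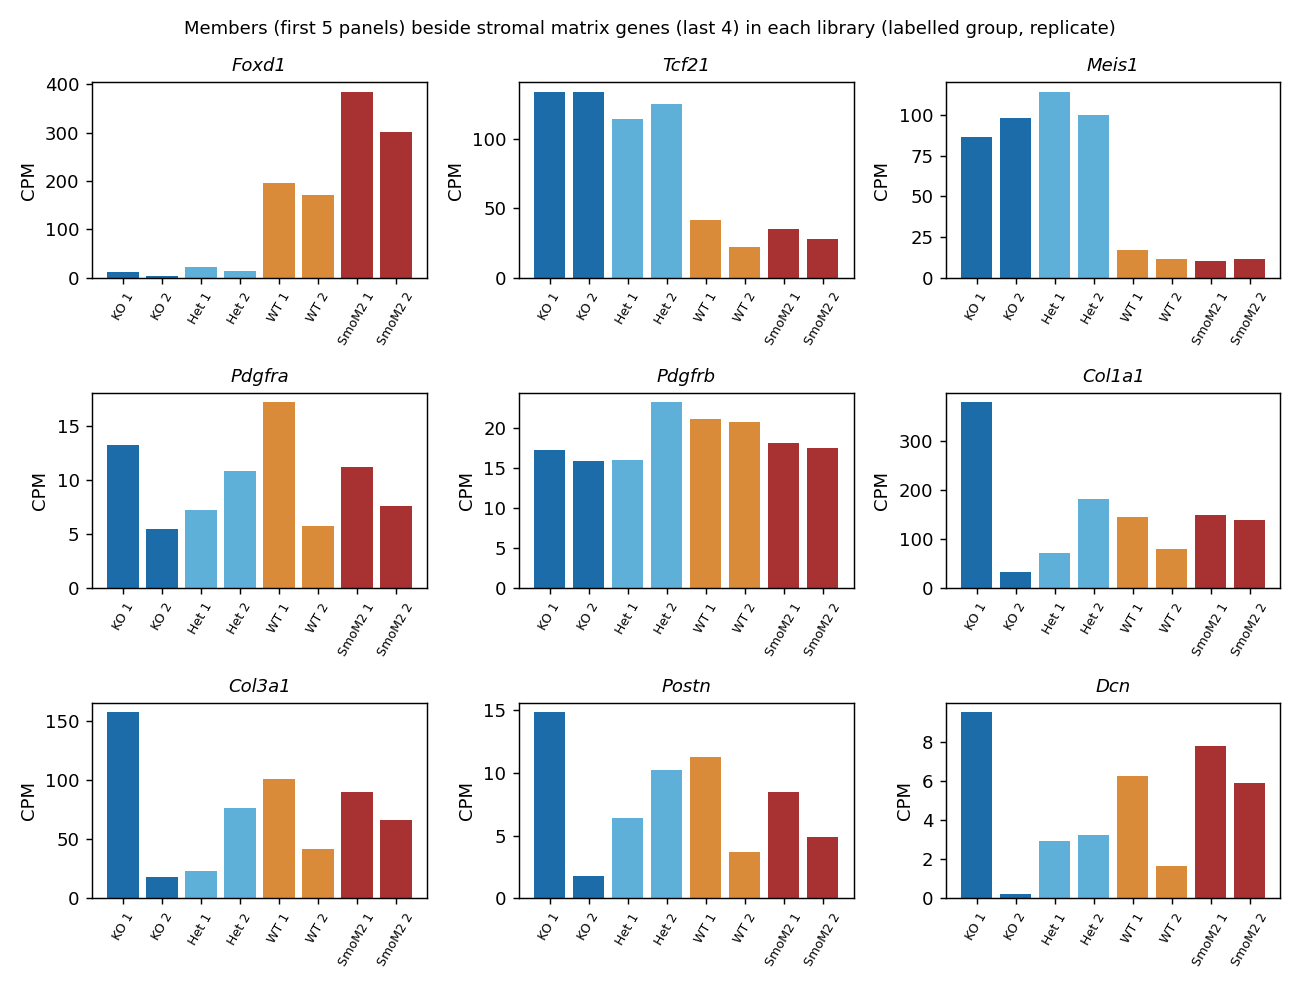
CPM in each library (bars from 0, coloured by labelled group) for 5 of the 6 genes and for the matrix genes Col1a1, Col3a1, Postn and Dcn. KO-labelled replicate 1 has the highest bar of each matrix gene, while Foxd1 is highest in the SmoM2-labelled libraries and Tcf21 and Meis1 in the KO-labelled and Het-labelled libraries.

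Markers of other cells give the setting of these levels. All 9 nephron progenitor markers had more than 3 counts in every library, and Six2 averaged 668, 745, 481 and 479 RPKM in the KO-, Het-, WT- and SmoM2-labelled groups, above all 6 genes. Their summed level was 4514 to 5885 CPM on the low-Smo side and 3793 to 4083 CPM on the high-Smo side. By edgeR 7 of the 9 were called higher and 1 (Gdnf) lower on the low-Smo side, with a median of 0.37. The calls of Wt1, Pax2, Sall1 and Osr1 were lost in 6 to 9 alternatives each. Six2, Meox1 and Cited1 parted the sides. Cited1 ran from 270.8 to 505.5 CPM on the low-Smo and from 85.4 to 172.9 CPM on the high-Smo side. The part of these markers' cells in the levels of the 6 genes was not tested. Podocytes also express Tcf21, and of the 7 podocyte markers Nphs1, a slit diaphragm gene, had at most 3 counts in every library. The summed level of that list was 50.8 to 73.1 CPM on the low-Smo side and 54.0 to 69.0 CPM on the high-Smo side, where Tcf21 was 4.01-fold lower. Of the 8 early nephron markers the summed level was 1393 and 1708 CPM in the KO-labelled libraries and 488 to 801 CPM in the rest. Of these 8 genes 5 were called higher and 0 lower on the low-Smo side by edgeR, with a median of 1.16. Fgf8, a growth factor gene of early nephrons, ran from 64.3 to 116 CPM on the low-Smo side and from 4.01 to 8.28 CPM on the high-Smo side (log2 3.90, SE 0.20, edgeR adjusted p 4.96e-07), so it parted the sides as Meis1 and Tcf21 did. Pax8 also parted them, and the part of early nephron cells in the levels of the 6 genes was not tested. Dissociation stress genes summed to 6678 and 6695 CPM in the Het-labelled libraries, 3072 and 4774 CPM in the KO-labelled and 2420 to 4036 CPM in the high-Smo libraries, and their part in the levels of the 6 genes was not tested. The endothelial, immune and collecting duct lists summed to at most 48.1 CPM in any library. The collecting duct list ran from 5.6 to 9.96 CPM on the low-Smo side and from 17.4 to 46.3 CPM on the high-Smo side. Wnt11 alone made up 9.79 and 7.52 CPM in WT-labelled and 24.1 and 34.2 CPM in SmoM2-labelled replicates. Of the 4 genes tested, 3 (Ret, Wnt11 and Krt8) were called lower and 0 higher on the low-Smo side by edgeR. Gata3 and Aqp2 had at most 2 counts in any library. The endothelial list was at 27.0 and 19.4 CPM in the KO-labelled libraries and at 1.07 to 4.79 CPM in the rest. Cldn5 alone made up 22.14 and 16.98 CPM in KO-labelled replicates 1 and 2. Pecam1, Cdh5 and Kdr had at most 3 counts in either of these libraries. The erythroid list summed to 13.7 to 45.2 CPM on the low-Smo side and 2.77 to 7.87 CPM on the high-Smo side. The part of these cells in the levels of the 6 genes was not tested.

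The genes whose pattern was most like that of each member were sought by the root mean square difference of log2 CPM, centred on the 8-library mean, over the 8 libraries and 8785 genes. For Foxd1 they included Sfmbt2 (0.276), which encodes a Polycomb group protein, Pltp (0.515), a phospholipid transfer protein gene, Smo (0.636) and Gli1 (0.814), the Hedgehog transcription factor gene. Mean levels on the low-Smo and high-Smo sides were 1.68 and 37.4 CPM for Sfmbt2 and 4.92 and 139 CPM for Pltp. Pltp, Smo and Gli1 were also among the 5 nearest on deposited RPKM values.

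Nearest to Meis1 were H2-Eb1 (0.305), H2-Aa (0.360) and Cd74 (0.478), which serve antigen presentation by MHC class II, the protease gene Klk8 (0.431) and the zinc-finger factor gene Egr3 (0.465). H2-Eb1 averaged 106 CPM on the low-Smo and 12.0 CPM on the high-Smo side. Of the 6 immune markers Ptprc had at most 1 count in any library, while Cd68 had 49 to 335 counts, Csf1r 0 to 40, C1qa 1 to 44, C1qb 0 to 34 and Lyz2 0 to 9. Their summed level overlapped between the sides, and the part of immune cells was not tested. Dusp2 and Trmt1l were among the nearest to Tcf21, at 0.285 and 0.287. Among the 6 genes themselves, Meis1 and Tcf21 differed by 0.538 and Meis2 and Pdgfrb by 0.236, while Foxd1 and Meis1 were farthest apart at 3.79. Ntn1, Col16a1 and Rspo1 were nearest to Pdgfra (0.273 to 0.333). For the nearly level Meis2 these were E2f8, Ergic1 and Il4ra, and for Pdgfrb Plod2, Axl and Clcn4, all within 0.100. All points share the same 8 libraries and their depth, so these distances are a description.

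**Figure D5:**
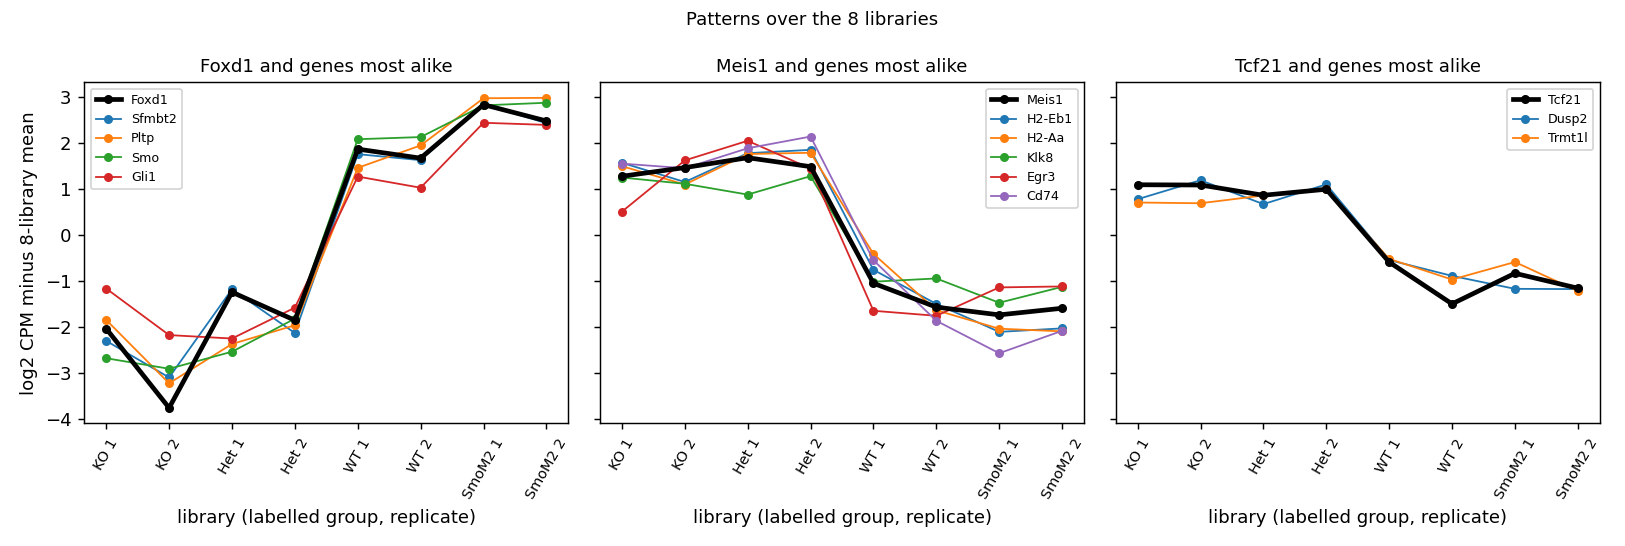
Log2 CPM minus the 8-library mean for Foxd1, Meis1 and Tcf21 (black) and genes among those most like each (coloured) in the 8 libraries by labelled group and replicate. The Foxd1 panel steps up and the Meis1 and Tcf21 panels step down between the Het-labelled and WT-labelled libraries, with root mean square differences of 0.276 to 0.814, 0.305 to 0.478 and 0.285 to 0.287 from the black line.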

How the data were processed

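Polyadenylated RNA of sorted cells was sequenced from 8 libraries in 4 groups, which were taken from the labels. The deposited table holds raw read counts per gene and the authors' RPKM values, per the file headers. STAR, featureCounts, Subread and mm10 are named in the submitters' processing notes, while the annotation and strand setting are not given in the sources used here. The listed counts made up 81.1% to 83.3% of the library totals that the RPKM values imply.

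Counts were fitted with edgeR 4.0.16 in R 4.3.3: filterByExpr, scaling by the trimmed mean of M values (TMM), a quasi-likelihood model with a mean per group over all 8 libraries (4 residual degrees of freedom, biological coefficient of variation 13.5%), two-sided tests, and Benjamini-Hochberg adjustment over 13459 genes with a threshold of 0.05. CPM use TMM-scaled totals, and log2 CPM a prior count of 2. A count of 3 was the floor, 0.280 to 0.664 CPM per library. The Poisson intervals of counts and the floors cover counting error only, while edgeR's intervals include the spread between libraries. Alternatives were DESeq2 1.42.0, other scalings and filters, a replicate block, length and GC trends, and leaving out each library. The members and lists were chosen with earlier results of these data known. Named genes are the members, the listed genes (those called with the largest changes or of highest RPKM as examples) and the nearest in pattern with an average log2 CPM of at least 4. With 2 libraries a group, no exact permutation test could pass the threshold. Some genes that this rule names are not reported here.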

Additional observations from a re-analysis of the deposited data

How the results depend on the processing

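The across-side changes of Foxd1 (-4.91 to -4.02), Meis1 (2.83 to 3.16) and Tcf21 (1.77 to 2.26) kept their sign in all 16 alternatives. Of the 6 genes, 1 (Foxd1) was called in KO minus Het with no filter on low counts, with the replicate block and without KO replicate 1 (0 to 1 over single left-out libraries), and 1 (Foxd1) in SmoM2 minus WT with no filter.

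Genes called in KO minus Het numbered 1269, against 2217 with no filter, 622 with length trends removed, 344 with GC and length trends removed (chosen after seeing the data) and 36 to 1472 without single libraries, the fewest without Het replicate 1. The calls were 45.9% higher ones, 60.7% with total counts, 35.8% with DESeq2 and 32.8% with length trends removed. In SmoM2 minus WT 30 genes were called, against 82 with DESeq2, 16 with total counts, 356 with no filter, 54 with the replicate block, 8 from only those 4 libraries and 8 to 81 without single libraries. Without single libraries the counts were 1304 to 2924 in KO minus WT, 1401 to 3615 in Het minus WT, 2423 to 4440 in KO minus SmoM2 and 2409 to 4732 in Het minus SmoM2. A lone library left in a group is assumed to vary like the others.

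No label says that the replicate numbers pair libraries. Deviations of same-numbered libraries correlated across genes at 0.391 between WT and SmoM2, where replicate 1 was male and replicate 2 female in both groups, and at -0.061 to 0.1 in the other 5 pairs of groups. With the replicate block 702 genes were called higher and 825 lower in KO minus Het, Foxd1 there was -1.19 (edgeR adjusted p 0.0234), Pdgfra -0.06, and Tcf21 in SmoM2 minus WT 0.00.

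Among values for the 6 genes, signs turned for Meis2, Pdgfra and Pdgfrb and for Tcf21 within the sides. With length trends removed, and with GC and length trends removed, Tcf21 became -0.05 and -0.09 in KO minus Het and 0.01 and 0.02 in SmoM2 minus WT. Meis2 became 0.10 and 0.16 in KO minus WT, 0.02 and 0.11 in KO minus SmoM2, 0.11 and 0.27 in Het minus SmoM2 and 0.10 and 0.22 between the sides. Pdgfra became 0.10 and 0.10, 0.47 and 0.48, 0.19 and 0.20, and 0.14 and 0.15 in the same comparisons, and 0.06 in KO minus SmoM2 with total counts. Pdgfrb became 0.00 in Het minus WT and 0.06 between the sides with length trends removed, and 0.12 and 0.00 in KO minus SmoM2. Leaving out single libraries, Pdgfra ran from -0.72 to 0.56 in KO minus Het, -0.85 to 0.71 in SmoM2 minus WT, -1.09 to 0.69 in KO minus WT, -0.97 to 0.63 in Het minus WT, -0.80 to 0.48 in KO minus SmoM2, -0.42 to 0.20 in Het minus SmoM2 and -0.58 to 0.30 between the sides. Pdgfrb ran from -0.49 to 0.03 in KO minus Het, -0.40 to 0.12 in Het minus WT and -0.17 to 0.35 in Het minus SmoM2, Meis2 from -0.04 to 0.31 in SmoM2 minus WT, -0.11 to 0.21 in Het minus WT and -0.20 to 0.00 in Het minus SmoM2, and Tcf21 from -0.38 to 0.52 in SmoM2 minus WT. The cause was not tested.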
